A study of Mus musculus with 4 samples.

Results

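Transcripts of peroxisomal enzymes and transporters and of peroxins, the proteins that build peroxisomes, were examined in the aortas of mice treated with rosiglitazone. The 43 genes, 33 enzymes and transporters and 10 peroxins, were taken from a given list by the gene symbol of their probe sets, among 8251 genes that have a probe set with 1 symbol on the array. Of the 43, 33 had such a probe set and 31 passed a filter on dim probe sets, namely 23 enzymes and transporters and 8 peroxins. The genes Nudt7, Decr2, Pecr, Crot, Hacl1, Agps, Prdx5, Hao1, Pex3 and Pex16 had no probe set with 1 symbol in the probe table used here. Acot8 and Uox had only a dim one. The members of the list were chosen with earlier results of these data known.

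The RNA came from aortas of adult male C57BL/6J mice, pooled over animals, and was hybridised to Affymetrix MG-U74Av2 arrays, 2 per group. The rosiglitazone arrays carry RNA of mice given the drug at 25 mg/kg per day for 21 days, and the vehicle arrays RNA of mice given vehicle over the same 21 days. Rosiglitazone is a thiazolidinedione that activates the nuclear receptor PPARγ. Every array holds a pool of animals, and the sources used here give neither the animals per pool nor whether a group had 1 pool or several, so p-values measure only the spread between arrays, which may be technical.

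The probe set intensities are on a linear scale that the deposited values share, with a trimmed mean of 1501 on each array. The number of arrays limits the precision, and array medians differed by at most 0.13 on the log2 scale. Across the 7134 probe sets tested, 26 passed an adjusted p of 0.05 in limma. The defining transcripts of the labelled tissue were present: 7 of the 8 listed smooth muscle markers passed the filter, with summed intensities of 52943 and 58321 on the rosiglitazone arrays, against 111684 and 134147 on the vehicle arrays. Markers of brown adipocytes, which surround the mouse aorta, were bright as well. Summed over 7 genes they gave 411161 and 449734 with rosiglitazone, against 296059 and 290955 with vehicle. Cidea alone made up 240828 and 286124 of these sums with rosiglitazone, against 188712 and 199365 with vehicle.

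Peroxisomes are organelles bounded by a single membrane that shorten very long and branched fatty acids, make the first intermediates of ether lipids and break down hydrogen peroxide. ABC transporters bring acyl-CoA in, a set of enzymes carries out beta-oxidation, and peroxins import matrix proteins, insert membrane proteins and divide the organelle. Many of these genes are known targets of PPARα in rodent liver, where agonists of that receptor make peroxisomes proliferate, and brown fat is rich in peroxisomes.

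Most of the peroxisomal genes that could be measured had higher intensities with rosiglitazone, by modest amounts, and none passed the test singly. Of the 23 enzymes and transporters past the filter, 19 had a log2 fold change above 0 and the median was 0.45. All 8 peroxins past the filter lay above 0, with a median of 0.51. Over all 5466 genes tested the median was -0.02, and 48.2% lay above 0. By gene, 0 of the 31 passed in either direction, where 0.0549% of all genes tested passed as higher and 0.329% as lower. Of the 36 member probe sets tested, 0 passed an adjusted p of 0.05 in limma, where 0.364% of all probe sets did, and 11 had an unadjusted p under 0.05, where 10.9% of all probe sets did. A fit with 1 array left out takes a gene's own spread from the other group alone, besides what limma borrows from other probe sets. For single genes only the fold change of such a fit is therefore given.

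Groups without overlap, with both rosiglitazone arrays above both vehicle arrays, were seen for 14 of the 23 enzymes and transporters and for 5 of the 8 peroxins, against 19.1% of all genes tested. A further 3 enzymes had both rosiglitazone arrays below both vehicle arrays, where 22.0% of all genes did. An unadjusted limma p under 0.05 together with no overlap marked 7 enzymes and transporters and 2 peroxins as higher, where 4.98% of all genes were, and 0 of the 31 genes as lower, where 5.93% were. The remaining 6 enzymes and transporters and 3 peroxins overlapped. Probe sets of the enzymes and transporters were also brighter, at a median log2 intensity of 12.72 against 10.53 for all genes tested, and the fit lets the variance follow intensity. Their median standard error was 0.25 on the log2 scale, against 0.38 for all genes tested, and the part of brightness in the shares without overlap was not tested. Abcd2, Ehhadh and Pex13 passed the filter only through their rosiglitazone arrays, so that only a high fold could bring them in. Leaving these 3 aside, the medians were 0.38 for 21 enzymes and transporters and 0.47 for 7 peroxins. Both rosiglitazone arrays then lay above both vehicle arrays for 12 of the 21 and for 4 of the 7. With an unadjusted limma p under 0.05 as well, 6 of the 21 and 2 of the 7 were higher. As the members were chosen with earlier results of these data known, all these shares are descriptions only. In bulk tissue, more cells of a type and more transcript per cell cannot be told apart.

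**Figure D1:**
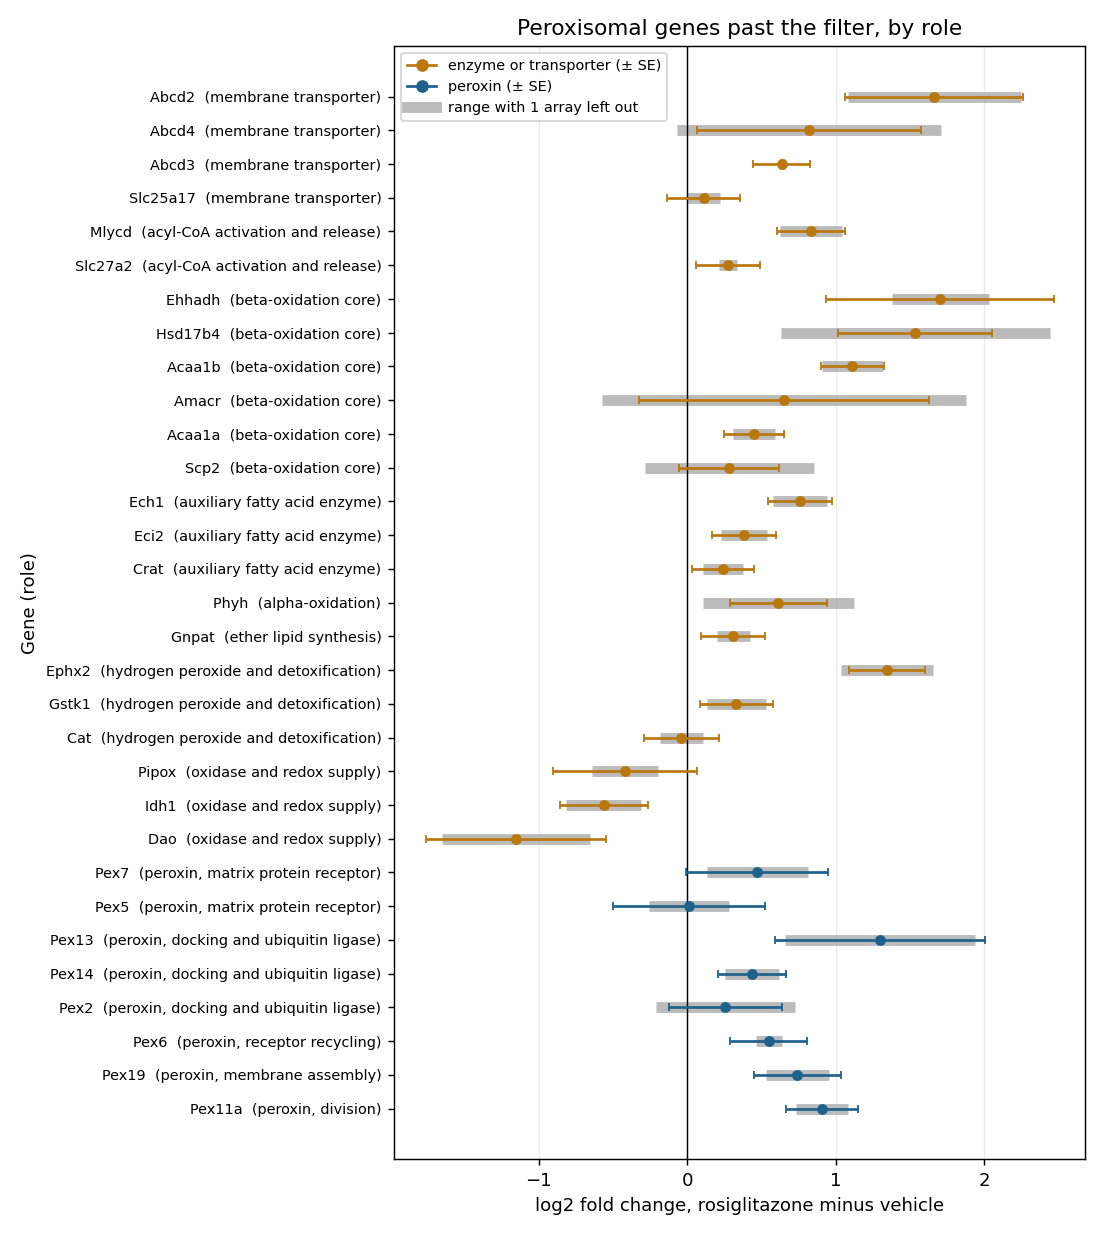
Log2 fold change, rosiglitazone minus vehicle, of the 31 peroxisomal genes past the filter, ordered by role down the page. Points with bars are limma estimates ± standard error and grey bars span the values with 1 array left out. Points of the transporter and lipid roles all lie right of 0, and those of Dao, Idh1 and Pipox lie left of it.

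The genes were also described by role. The 17 genes listed as membrane transporters or under acyl-CoA activation, beta-oxidation, its auxiliary steps, alpha-oxidation or ether lipid synthesis all lay above 0, at a median of 0.64 on the log2 scale. Of these, 12 were higher with no overlap, where 19.1% of all genes tested were. Without Abcd2 and Ehhadh, which the filter kept only through rosiglitazone, the median of the 15 left was 0.61, and 10 had no overlap. The 3 genes grouped as oxidases and redox supply, Dao, Pipox and Idh1, all lay below 0, as did 2831 of the 5466 genes tested. All 3 were lower with no overlap, where 22.0% of all genes tested were, and 0 of the 3 had an unadjusted limma p under 0.05. Among the genes of peroxide breakdown and detoxification, Cat lay near 0 and the other two above it. These role groups were not tested against each other. Joining the 17 genes into a set was not planned beforehand. It set aside the roles that held a gene below 0, so that all 17 lay above 0 follows from the joining. The joining also bears on the counts of these genes without overlap, which are descriptions only. Of the 17, Abcd4, Slc25a17, Scp2 and Amacr fell below 0 when some single array was omitted.

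The later steps of beta-oxidation were represented, from hydration to thiolysis. Acaa1b, 1 of 2 mouse genes for the thiolase that cleaves off acetyl-CoA at the last step, had intensities of 25740 and 34079 with rosiglitazone, against 13808 and 13567 with vehicle. Both rosiglitazone arrays were clearly above both vehicle arrays, and the vehicle arrays differed little. The log2 fold change was 1.11 (standard error 0.21, 2.16-fold, limma adjusted p = 0.078). It ran from 0.91 to 1.32 with 1 array left out. Its neighbour Acaa1a, the other thiolase gene, had 22490 and 22321 with rosiglitazone, against 14854 and 18063 with vehicle. Here the groups were apart as well, and the log2 fold change was smaller, at 0.45 (standard error 0.20, adjusted p = 0.462 in limma). The 2 genes are close copies, so each probe set may also bind the other's transcript, and the difference between them was not tested.

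The promoters of the thiolase pair are shown because the genes code for the same activity and their estimated fold changes differed. That difference was not tested. The promoters of Slc27a2, with the only match among members to a shortened PPAR element, and of Pex11a, the peroxin with the smallest p, follow. Each runs 5′ to 3′ on the gene's strand from 250 bases before to 50 after the start, from RefSeq on GRCm38.p6, with capitals on GC boxes (GGGCGG) and nuclear receptor half-sites (AGGTCA) on either strand.
Acaa1b, chr9:119157044-119157343, minus strand: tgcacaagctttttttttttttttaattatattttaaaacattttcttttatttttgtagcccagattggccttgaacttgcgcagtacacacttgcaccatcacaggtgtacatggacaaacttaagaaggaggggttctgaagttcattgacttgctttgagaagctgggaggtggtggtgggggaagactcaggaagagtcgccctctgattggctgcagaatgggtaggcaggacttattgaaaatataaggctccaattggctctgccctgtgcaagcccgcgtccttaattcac
Acaa1a, chr9:119341044-119341343, plus strand: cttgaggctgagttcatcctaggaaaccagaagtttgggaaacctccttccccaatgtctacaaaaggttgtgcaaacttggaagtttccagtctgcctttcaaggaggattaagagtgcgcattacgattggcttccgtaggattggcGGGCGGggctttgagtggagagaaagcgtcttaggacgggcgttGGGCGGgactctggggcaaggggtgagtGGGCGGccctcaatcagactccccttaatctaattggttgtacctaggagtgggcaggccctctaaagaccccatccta
Slc27a2, chr2:126552774-126553073, plus strand: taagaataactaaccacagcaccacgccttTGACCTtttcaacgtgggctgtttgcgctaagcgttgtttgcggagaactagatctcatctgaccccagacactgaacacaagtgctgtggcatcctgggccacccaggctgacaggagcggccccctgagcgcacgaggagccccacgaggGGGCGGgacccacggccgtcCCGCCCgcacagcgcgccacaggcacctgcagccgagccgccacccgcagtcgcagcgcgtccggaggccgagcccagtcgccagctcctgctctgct
Pex11a, chr7:79743082-79743381, minus strand: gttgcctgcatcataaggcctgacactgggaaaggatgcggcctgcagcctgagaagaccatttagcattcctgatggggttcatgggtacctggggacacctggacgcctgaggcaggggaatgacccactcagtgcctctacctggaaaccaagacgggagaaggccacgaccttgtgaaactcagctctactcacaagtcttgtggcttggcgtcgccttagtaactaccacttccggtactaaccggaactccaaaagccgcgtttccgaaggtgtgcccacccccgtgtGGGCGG

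The window of Acaa1b held 0 GC boxes, 4 CpG dinucleotides and 43.7% G and C, while that of Acaa1a held 3 GC boxes, 10 CpG and 53.3% G and C. PPAR with its partner RXR is known to bind a direct repeat of the half-site with a base between. Searched on both strands as AGGNCA, any base and AGGNCA again, this repeat was in 0 of 29 promoter windows of 23 of the 31 genes, and in 0.229% of the 5672 windows of all genes tested. A shorter form, AGGTCA with any base and AGG after it, contains the half-site and was in 1 of the 29, that of Slc27a2, from base 27 to 36 of its window on the minus strand, against 0.582% of all windows of genes tested. Half-sites alone were in 6 of the 29 windows, or 20.7%, against 13.2%. GC boxes were in 20 of the 29, against 60.3% of windows of genes tested. These matches are descriptions of short windows, and no match says only that the letters are not there.

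Hsd17b4, the D-bifunctional protein that hydrates and dehydrogenates very long and branched acyl-CoA, had 16905 and 4813 with rosiglitazone, against 4202 and 2304 with vehicle. Rosiglitazone replicate 1 stood far above the other three arrays, and rosiglitazone replicate 2 was only a little above vehicle replicate 3. The log2 fold change of 1.54 (standard error 0.52, limma adjusted p = 0.316) was thus 0.63 once rosiglitazone replicate 1 was left out. Leaving out rosiglitazone replicate 2 instead gave 2.44. Ehhadh, the L-bifunctional protein that does the same steps for straight chains and is a classic PPARα target in rodent liver, had 795 and 750 with rosiglitazone, against 189 and 297 with vehicle. The groups were apart at a low level, near the floor of 148 that was set under all intensities. Its log2 fold change was 1.70 (standard error 0.77, adjusted p = 0.467 in limma), for a gene that passed the filter only through its rosiglitazone arrays. With the floor raised to the 40th percentile, 414, it was 0.90.

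Scp2 encodes a thiolase for branched chains joined to a sterol carrier. Its brightest probe set overlapped, with 14043 and 6383 under rosiglitazone, against 7611 and 7955 under vehicle (log2 fold change 0.28). A second probe set of Scp2 did not overlap, with 6234 and 6668, against 4678 and 3643 (log2 fold change 0.64, limma adjusted p = 0.368). Without rosiglitazone replicate 1 the first turned to -0.29, while the second stayed above 0 with any array left out. Amacr, the racemase that readies branched acyl-CoA for oxidation, had the largest standard error of the 31 genes, 0.97, with 334 and 1462 under rosiglitazone, against 1040 and 190 under vehicle.

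**Figure D2:**
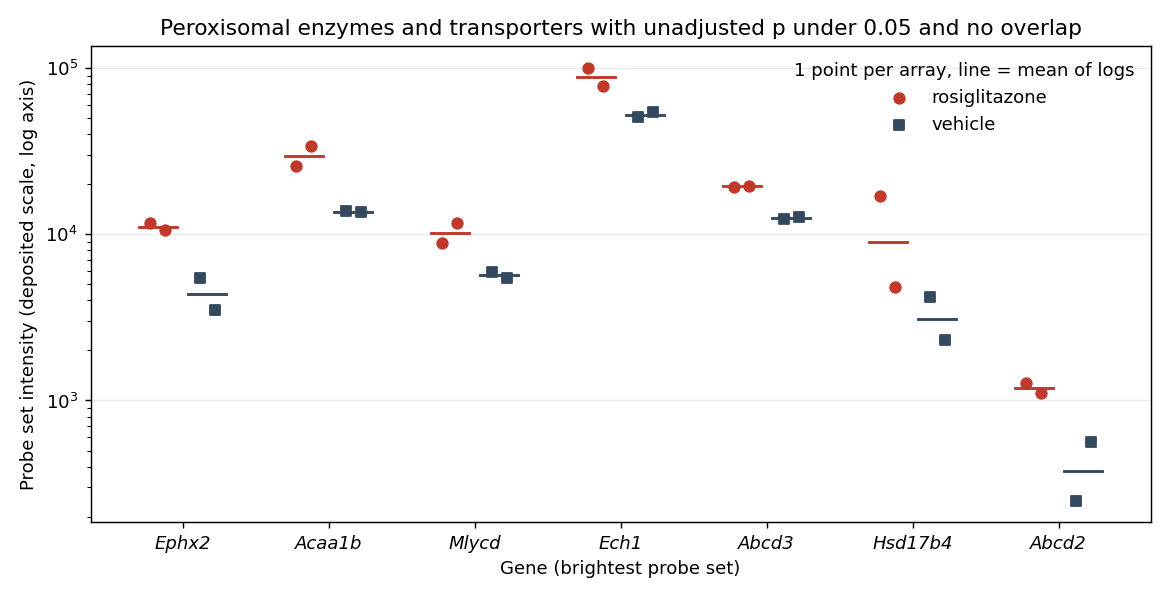
Probe set intensity, on a log axis, of the 7 enzymes and transporters with an unadjusted limma p under 0.05 and no overlap. Each point is 1 array, rosiglitazone left of vehicle, and lines are means of the logs. Ephx2 and Acaa1b lie clearly apart, and the rosiglitazone arrays of Hsd17b4 are spread from 4813 to 16905.

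The auxiliary enzymes, which fit unusual double bonds and chain ends into the pathway, were all somewhat higher. Ech1, a dienoyl-CoA isomerase of peroxisomes and mitochondria, had 100456 and 77868 with rosiglitazone, against 50446 and 54151 with vehicle. Both rosiglitazone arrays were above both vehicle arrays (log2 fold change 0.76, standard error 0.22, limma adjusted p = 0.215). Eci2, an enoyl-CoA isomerase, and Crat, carnitine acetyltransferase, were apart by less, at 0.38 and 0.24. The second probe set of Crat overlapped, at 0.15.

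Among genes that activate or release acyl-CoA, Mlycd, the malonyl-CoA decarboxylase of mitochondria, peroxisomes and cytosol, had 8799 and 11757 with rosiglitazone, against 5934 and 5474 with vehicle. Its groups were apart, at a log2 fold change of 0.84 (standard error 0.23, limma, adjusted p = 0.196). Slc27a2, a very-long-chain acyl-CoA synthetase, had 7109 and 7724 with rosiglitazone, against 6386 and 5877 with vehicle. That is a narrow gap without overlap, of 0.27 on the log2 scale. Acot8, a thioesterase, was too dim to test, with 831 and 274 on the rosiglitazone arrays, against 527 and 102 on the vehicle arrays.

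The membrane transporters covered a wide range of precision. Abcd3, the abundant ABC half-transporter for branched and dicarboxylic acyl-CoA, had 19331 and 19582 with rosiglitazone, against 12316 and 12690 with vehicle. Arrays of a group nearly coincided, and the log2 fold change of 0.64 (standard error 0.19, limma adjusted p = 0.242) moved only between 0.62 and 0.66 with 1 array left out. Abcd2, the half-transporter for very long polyunsaturated acyl-CoA, had 1275 and 1106 with rosiglitazone, against 250 and 560 with vehicle. The groups were apart, but the vehicle arrays differed by over 1 on the log2 scale, and the log2 fold change of 1.67 had an error of 0.60 (SE, adjusted p = 0.351 in limma). Slc25a17, the carrier of CoA and related cofactors, overlapped with 4249 and 3629, against 3578 and 3700. Abcd4, a relative now known mainly for lysosomal cobalamin transport, overlapped too, with 545 and 1195 under rosiglitazone, against 848 and 247 under vehicle.

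Alpha-oxidation, which trims phytanic acid by a carbon, and ether lipid synthesis had 1 gene each past the filter. Phyh, the phytanoyl-CoA hydroxylase, had 23722 and 11706 with rosiglitazone, against 12821 and 9243 with vehicle. Rosiglitazone replicate 2 lay between the vehicle arrays (log2 fold change 0.61, standard error 0.33). Gnpat, the acyltransferase that starts ether lipid synthesis, had 7780 and 8109 with rosiglitazone, against 5929 and 6913 with vehicle, a gap without overlap of 0.31 on the log2 scale (adjusted p = 0.651 in limma).

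Ephx2, the soluble epoxide hydrolase that converts vasoactive epoxides of arachidonic acid to diols, had the smallest p of the 31 genes. Its intensities were 11644 and 10619 with rosiglitazone, against 5416 and 3524 with vehicle. The groups were far apart, at mean log2 intensities of 13.44 ± 0.09 on the rosiglitazone arrays and 12.09 ± 0.44 on the vehicle arrays (SD, n = 2 per group). The log2 fold change was 1.35 (standard error 0.26, 2.55-fold; limma, adjusted p = 0.078) and it stayed from 1.04 to 1.66 with 1 array left out.

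Catalase, Cat, the enzyme that gives peroxisomes their peroxide-destroying activity, showed no such separation. Its brightest probe set had 3656 and 3378 with rosiglitazone, against 3993 and 3268 with vehicle, and a second had 3747 and 2654, against 3326 and 3208. Both overlapped, with log2 fold changes of -0.04 and -0.05, each turning just above 0 when every array was centred on its median. The standard error of the first was 0.25. Gstk1, a glutathione transferase of mitochondria and peroxisomes, had 5462 and 7195 with rosiglitazone, against 5439 and 4567 with vehicle, and touched without overlapping (log2 fold change 0.33).

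The oxidases tested, Dao and Pipox, lay below 0 at low intensities. Of all 5466 genes tested, 2831 lay below 0 as well. Dao, D-amino acid oxidase, had 585 and 294 with rosiglitazone, against 967 and 880 with vehicle (log2 fold change -1.15, standard error 0.61, limma adjusted p = 0.543). Pipox, which oxidises pipecolate and sarcosine, had 610 and 796, against 1088 and 799 with vehicle, so that the nearest arrays were almost equal (log2 fold change -0.42). Uox, urate oxidase, was below the filter at 64 and 130 with rosiglitazone, against 49 and 491 with vehicle. Dao, Pipox and Uox are known mainly from liver and kidney. Summed intensities of 4 hepatocyte markers were 2241 and 3309 with rosiglitazone, against 2820 and 2267 with vehicle. Those of 3 kidney tubule markers were 1710 and 2385, against 1972 and 1950. Each of these markers was dim on its own. No hepatocyte marker exceeded 938 on any array and no kidney tubule marker 990, beside a filter at a mean of 414. The rosiglitazone and vehicle arrays overlapped in both lists, and the part of such RNA in the values of these oxidases was not tested.

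Idh1, the NADP-dependent isocitrate dehydrogenase of cytosol and peroxisomes, had 2427 and 1990 under rosiglitazone, against 2721 and 3863 under vehicle. It lay below vehicle on both arrays, at a log2 fold change of -0.56 (standard error 0.30, adjusted p = 0.547 in limma).

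The peroxins were described apart from the enzymes. Pex11a, which elongates and divides peroxisomes and is the peroxin best known as inducible by PPARα agonists in rodents, had 6886 and 8773 with rosiglitazone, against 4597 and 3735 with vehicle. Its groups were well apart, at a log2 fold change of 0.91 (standard error 0.24, 1.88-fold; limma, adjusted p = 0.178), from 0.73 to 1.08 with 1 array left out. Pex19, the chaperone of new membrane proteins, had 3089 and 2966 with rosiglitazone, against 1560 and 2099 with vehicle (log2 fold change 0.74, standard error 0.29, adjusted p = 0.403). Another probe set of Pex19 was below the filter and had lower rosiglitazone values, with 140 and 17, against 236 and 224.

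Import of matrix proteins was covered by receptors, docking factors and a recycling ATPase. Pex5, the receptor for the C-terminal targeting signal, overlapped fully, with 922 and 634 under rosiglitazone, against 652 and 881 under vehicle (log2 fold change 0.01, standard error 0.51). Pex7, the receptor for the N-terminal signal that the thiolases carry, had 1254 and 880, against 598 and 957, and overlapped at a log2 fold change of 0.47. The standard error of Pex7 was 0.48, so both receptors have errors about as large as the peroxin median.

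Pex14, the docking protein at the membrane, had 3 probe sets past the filter that disagreed. The brightest had 11455 and 9521 with rosiglitazone, against 6810 and 8735 with vehicle (log2 fold change 0.44), and a second had 10828 and 9667, against 7131 and 5866 (0.66). The other one overlapped, with 851 and 757, against 1431 and 466 (-0.02). The first and second had no overlap and adjusted p of 0.541 and 0.303 in limma.

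Pex13, the other docking protein, had 811 and 822 with rosiglitazone, against 517 and 213 with vehicle. Its vehicle arrays were far apart, so the log2 fold change of 1.30 had an error of 0.71 (SE, adjusted p = 0.562 in limma). Pex6, the ATPase that pulls the receptor back out of the membrane, had 3707 and 3478 with rosiglitazone, against 2311 and 2607 with vehicle. Arrays of a group lay close together, and the log2 fold change of 0.55 (standard error 0.26, adjusted p = 0.49) stayed from 0.46 to 0.64 with 1 array left out. Pex2, a ubiquitin ligase of the receptor cycle, overlapped, with 2889 and 1510, against 1988 and 1539 (0.26).

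**Figure D3:**
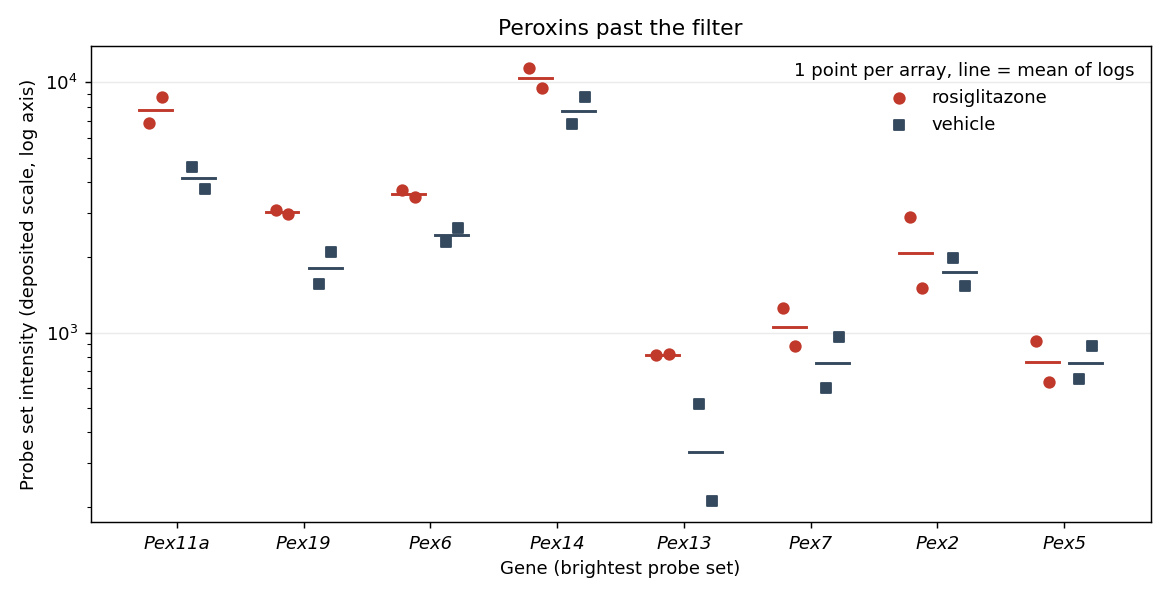
Probe set intensity, on a log axis, of the 8 peroxins past the filter, brightest probe set per gene, ordered by p. Each point is 1 array, rosiglitazone left of vehicle, and lines are means of the logs. Pex11a, Pex19, Pex6, Pex14 and Pex13 have no overlap, while Pex7, Pex2 and Pex5 overlap.

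A gene whose groups do not overlap cannot change sign when 1 array is left out, so only overlapping genes were open to it. With any single array left out, 15 of the 23 enzymes and transporters stayed above 0 and 3 stayed below. Of the 6 that overlapped, Abcd4, Slc25a17, Scp2, Amacr and Cat changed sign, and Phyh stayed above 0. Of the 8 peroxins, 6 stayed above 0. Of the 3 that overlapped, Pex5 and Pex2 changed sign, and Pex7 stayed above 0. Seen array by array, the median deviation of the enzymes and transporters from each gene's mean was 0.21 and 0.20 on the rosiglitazone arrays, against -0.17 and -0.25 on the vehicle arrays. For the peroxins it was 0.38 and 0.16, against -0.33 and -0.17. The groups did not overlap in either set. These deviations come from the same values as the fold changes, so they add no separate evidence. The sets include Abcd2, Ehhadh and Pex13, which the filter kept only through rosiglitazone.

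Further peroxisomal genes outside the 43 had a median near 0. Of 34 listed enzymes and membrane proteins, 14 passed the filter, 7 above 0 and 7 below, and their median was -0.001 on the log2 scale. In limma 0 of them passed an adjusted p of 0.05, and 2 of the 14 had an unadjusted p under 0.05, near the 11.0% of all genes tested. These were Tysnd1, the protease that trims imported enzymes (0.94, adjusted p = 0.124), and Sod1, a superoxide dismutase found mainly in the cytosol (0.47, adjusted p = 0.453). Dhrs4, a peroxisomal reductase, had 0.58 and Lonp2, the peroxisomal Lon protease, 0.44, while Baat, which conjugates bile acids, had -0.47 and Mgst1, a glutathione transferase, -0.31. The 14 include genes that act mostly elsewhere, and the 2 lists were not tested against each other. Of 9 further peroxins and division factors only Dnm1l and Mff, which divide mitochondria and peroxisomes, passed the filter, with overlapping groups at 0.21 and 0.14.

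**Figure D4:**
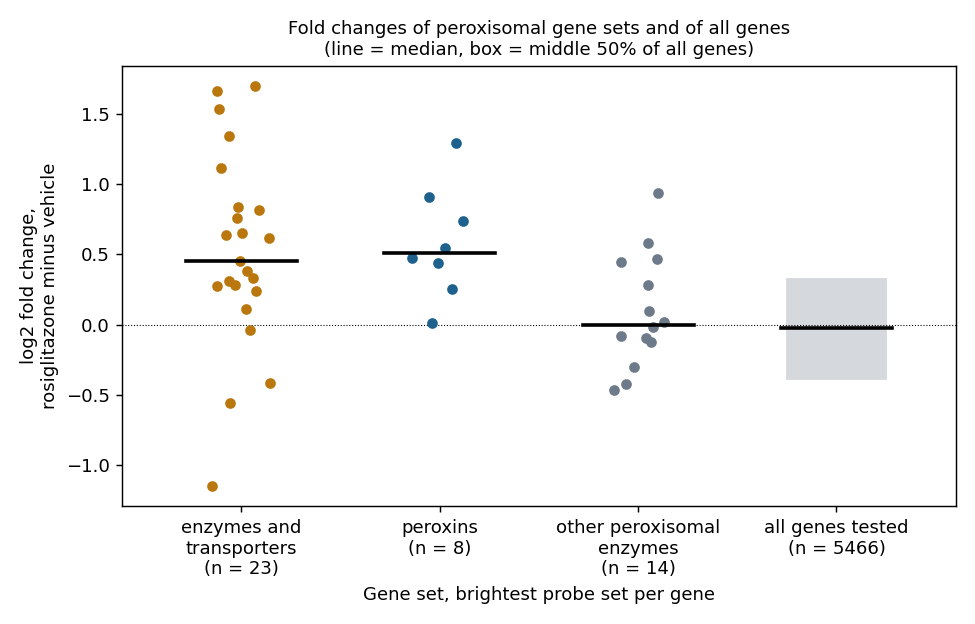
Log2 fold change, rosiglitazone minus vehicle, 1 point per gene, for the 23 enzymes and transporters, the 8 peroxins and 14 other peroxisomal enzymes, with the median and middle 50% of all 5466 genes tested. Medians are 0.45, 0.51, -0.001 and -0.02, and the points are horizontally jittered.

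Receptors and coactivators from a list of PPAR regulators were also measured. Their part in the values of the peroxisomal genes was not tested. Ppara, the receptor best known for peroxisomal genes, had 15773 and 22435 with rosiglitazone, against 10019 and 10141 with vehicle (log2 fold change 0.90, standard error 0.23, limma adjusted p = 0.154). Its groups did not overlap. Pparg, the target of the drug, overlapped at -0.58 (adjusted p = 0.602). The partner receptor Rxra had 0.31 on its brightest probe set and 1.62 on another (adjusted p = 0.84 and 0.149), and Rxrb had -0.81 (adjusted p = 0.386). The oxysterol receptor Nr1h3 had 1.02 and the coactivator Med1 0.61, both without overlap and with adjusted p of 0.243 and 0.585. Ncoa1, another coactivator, overlapped at 0.37. Rxra was named for its role, after its values were seen. Ppara is also among the brown adipocyte markers. Of 14 listed regulators 7 passed the filter, 5 of them above 0, and 0 passed an adjusted p of 0.05 in limma, with 3 at an unadjusted p under 0.05, where 11.0% of all genes tested were. Of the 3, Ppara and Nr1h3 were higher and Rxrb lower.

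Values of cell type markers stand beside those of the peroxisomal genes. Brown adipocyte markers, 7 of 12 past the filter, had 6 above 0 and a median of 0.44, beside 0.45 and 0.51 for the peroxisomal sets. The other, Dio2, named for its direction, lay at -0.33 without overlap. White adipocyte markers, 9 of 11 past the filter, had 5 above 0 and a median of 0.07. Their sums were 280566 and 320081 on the rosiglitazone arrays, against 218823 and 234865 on the vehicle arrays. Adipoq alone made up 165554 and 195068 of these sums with rosiglitazone, against 125080 and 136822 with vehicle. All 7 smooth muscle markers tested lay below 0, with a median of -1.26. So did all 8 macrophage markers, with a median of -1.13 and sums of 20092 and 19717, against 57777 and 63009 with vehicle. Cd14 alone made up 3496 and 3642 of these sums with rosiglitazone, against 27529 and 26830 with vehicle. Smtn of smooth muscle and Emr1 of macrophages passed the filter only through their vehicle arrays, so that only a fall could bring them in. Of the markers, 3 passed an adjusted p of 0.05 in limma. Fabp3 of brown adipocytes, which carries fatty acids, was higher (log2 fold change 1.55, adjusted p = 0.024), while Tagln of smooth muscle (-1.26, adjusted p = 0.046) and Cd14 of macrophages (-2.93, adjusted p = 0.000145) were lower. The brown adipocyte markers Elovl3, Ppargc1a and Zic1 were below the filter. Array by array, the brown adipocyte median deviated by 0.09 and 0.34 with rosiglitazone, against -0.26 and -0.18 with vehicle. The part of the cell mixture in the values of the peroxisomal genes was not tested.

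**Figure D5:**
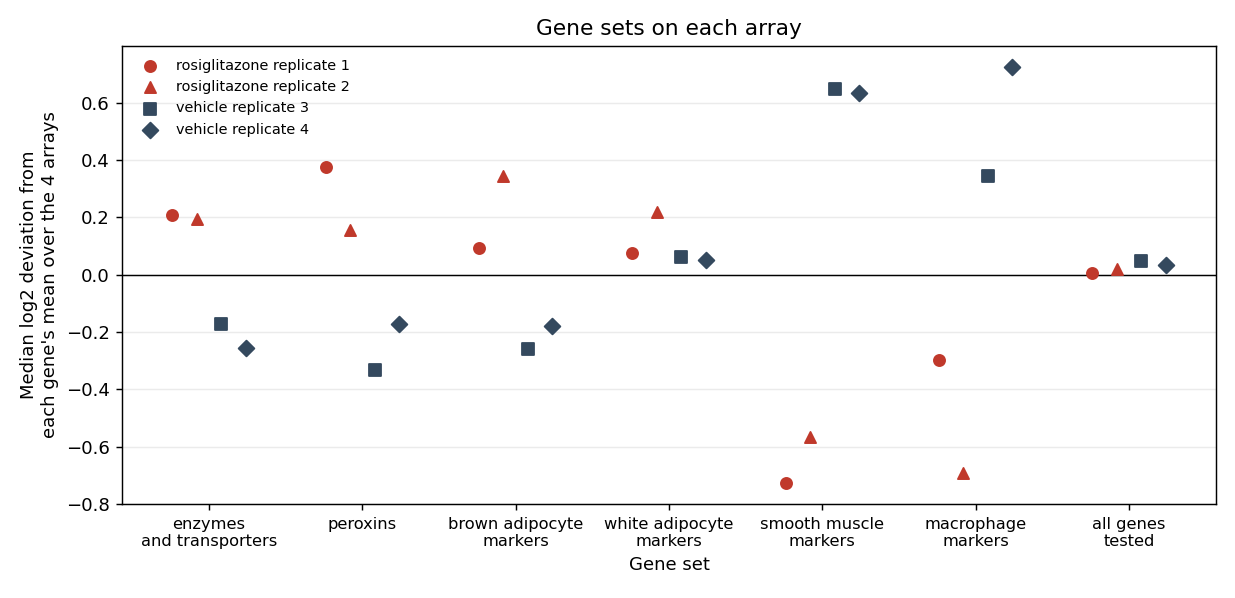
Median log2 deviation of each gene set from its genes' means over the 4 arrays, with 1 point per array, rosiglitazone left of vehicle. Enzymes and transporters, peroxins and brown adipocyte markers lie above 0 on both rosiglitazone arrays, smooth muscle and macrophage markers lie below it, and the median of all genes tested lies within 0.046 of 0.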

How the data were processed

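The authors' deposited table holds 1 whole-number intensity per probe set and array on a linear scale, from 2 to 616423. The software and background correction behind it are not given in the sources used here, and the equal trimmed means (2% at each end) show global scaling. Of 12488 probe sets, 66 controls were left out, and symbols came from the platform's probe table, updated by gene identifier. Intensities under 148, the 20th percentile, were set to 148 before log2 was taken, which touched 0 of the 36 member probe sets tested. Probe sets with a mean at or above 414, the 40th percentile, were kept. The test was limma 3.58.1 under R 4.3.3, two-sided, where eBayes used a trend on intensity, and p-values were adjusted by Benjamini-Hochberg across the 7134 probe sets. A permutation of 2 against 2 arrays cannot give an exact p under 0.333. Each gene is represented by its brightest probe set. The procedure was tested on simulated arrays.

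The members and lists were chosen with earlier results of these data known. Values per array are given for members with an unadjusted p under 0.05 and no overlap, for peroxins past the filter, for genes whose probe sets disagree in sign or by over 1 on the log2 scale, and for others named for their role, the last kind chosen after their values were seen. The lists cover smooth muscle, brown and white adipocyte, macrophage, erythrocyte, endothelial, hepatocyte, kidney tubule and skeletal muscle markers. Of other lists, up to 6 genes with the smallest unadjusted p are named. Alternatives covered the normalization, floor, filter, variance trend, probe set choice and each array left out.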

Additional observations from a re-analysis of the deposited data

How the results depend on the processing

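The counts of calls depended on the arrays and the filter. The 26 probe sets became 0 without the filter and 0 with the floor at the 40th percentile (1202 and 933 at an unadjusted p under 0.05), 7 without the intensity trend, and from 1 to 78 with 1 array left out. Member calls ranged from 0 to 1 with 1 array left out, and were 0 under the other alternatives run. The median of the enzymes and transporters was 0.54 with arrays centred on their medians, 0.35 after quantile normalization and 0.33 with the floor at the 40th percentile, and ran from 0.38 to 0.46 with 1 array left out. That of the peroxins ran from 0.40 to 0.73 with 1 array left out. Both medians stayed above 0 under all alternatives run. Centring shifted the median of all genes to 0.06.

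Of 396 values of member probe sets under alternatives, 19 changed sign. Of these, 15 came from leaving out 1 array. The log2 fold change then ran from -0.071 to 1.71 for Abcd4, from -0.0038 to 0.22 for Slc25a17, from -0.29 to 0.85 for the brightest probe set of Scp2 and from -0.57 to 1.88 for Amacr, where a second array gave -0.41. It ran from -0.10 to 0.40 for the second probe set of Crat, where another array gave -0.072. For Cat it ran from -0.18 to 0.10 on the brightest probe set, with 0.017 without rosiglitazone replicate 2, and from -0.30 to 0.20 on the other. It ran from -0.26 to 0.28 for Pex5, where vehicle replicate 3 left out gave -0.20, from -0.21 to 0.72 for Pex2, and from -0.83 to 0.78 for the last of the Pex14 probe sets, with 0.06 without rosiglitazone replicate 2. Centring gave Cat 0.033 and 0.044 and Pex14 0.059, and quantile normalization gave Pex14 0.057. Apart from those leaving out an array, the cause was not tested. No paired analysis was possible because the groups share no replicate number. Erythrocyte (-0.73), endothelial (-0.32) and skeletal muscle (0.009) markers had these median log2 fold changes over 5, 6 and 3 genes. Each list was split, with 3, 4 and 1 genes below 0 and 2 above in each. Erythrocyte sums overlapped, at 507139 and 669608 with rosiglitazone, against 563914 and 658396 with vehicle. Hba-a1, most of these sums, lay at 0.02. Endothelial genes ran from -0.63 for Vwf to 1.45 for Cldn5, both without overlap (limma adjusted p = 0.467 and 0.078).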
